A study of Homo sapiens with 8 samples.

Results

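TRIM proteins are a family of ubiquitin ligases, and 74 array probes for 44 TRIM genes gave a signal in KM-H2 cells. They were chosen by name and by detection: the gene symbol had to be TRIM followed by a number, and the signal had to be well above the local background in at least 4 of the 8 array channels. The array held 99 such probes for 58 TRIM genes among its 41000 probes. KM-H2 is an established line of Hodgkin lymphoma, a malignancy of B cells in which miR-155 is abundant. The cells had been transduced with the retroviral vector pMSCV-PIG, either empty (EV) or carrying a sponge for miR-155, whose transcript is designed to capture that miRNA, and GFP+ cells were sorted from both populations. The latter population (miR-155-sp in the labels) is called sponge cells. Total RNA (T) and RNA pulled down with an antibody against Argonaute 2 (Ago2-IP) were taken from each population, which gave 4 RNA samples, 1 per group. Each RNA was labelled once with Cy3 and once with Cy5, on 4 arrays that each held T and IP of one population. These labellings are technical, so the differences below rest on 1 sample a side and could not be tested. In place of a replicate error, both dye orientations are given, first the array with IP in Cy5 and then that with IP in Cy3.

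Most TRIM proteins share a RING finger, which transfers ubiquitin from an E2 enzyme to a substrate, followed by B-box zinc fingers and a coiled coil. The domain after this tripartite motif sorts them into groups: PRY-SPRY members often recognise viral or immune proteins, PHD-bromodomain members bind chromatin, NHL members bind RNA or proteins, and COS members bind microtubules. Ago2 carries miRNAs to mRNAs, and an mRNA bound by any miRNA complex can be enriched in the Ago2-IP fraction. TRIM32, an NHL member mutated in a form of limb girdle muscular dystrophy, was among the genes that the study chose as miR-155 targets. That choice was made in Burkitt lymphoma cells overexpressing miR-155, where a luciferase reporter assay followed. In KM-H2 cells the study called TRIM32 borderline enriched. The miRNA that the sponge is designed to capture is shown because the sponge is the designed difference between the populations. Its seed (bases 2 to 8), the part that pairs with target mRNAs, is in capitals. A target site for this seed reads AGCAUUA. The sequence is RefSeq's, of assembly GRCh38.p14.
hsa-miR-155-5p: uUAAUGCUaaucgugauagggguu

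The Cy5 channels were less sensitive than the Cy3 channels. The share of spots well above background ranged from 58.9% to 61.9% in Cy3 and from 38.8% to 43.4% in Cy5. Of the array's probes, 22538 passed the detection rule, and 17912 of these also gave values within 2-fold between both labellings of all 4 samples. These are called retained probes. The log2 IP/T of the retained TRIM probes correlated between dye orientations with r = 0.88 in EV and r = 0.87 in sponge cells, across probes that share arrays. Of 10 genes typical of Hodgkin cells 9 were detected, TNFRSF8 (CD30), CCL17, IRF4 and MIR155HG (the host gene of miR-155) among them, whereas CCL22 was not. Of the B-cell genes usually lost in Hodgkin cells 2 of 6 were detected (CD79A and POU2AF1), and of T-cell, myeloid and epithelial markers 2 of 5, 2 of 4 and 2 of 4.

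All 74 TRIM probes were well above background in all 4 Cy3 channels, so none was detected through one fraction or one population alone. In Cy5, 35 were above background in all 4 channels, 21 in none and the others in 1 to 3. Those 21 lie just inside the detection rule, and a second TRIM23 probe, A_24_P208998, lay just outside it with 3 channels. The 14 genes with no detected probe were TRIM6, TRIM15, TRIM17, TRIM40, TRIM42, TRIM46, TRIM48, TRIM51, TRIM54, TRIM55, TRIM58, TRIM60, TRIM63 and TRIM72. They include TRIM54, TRIM55 and TRIM63, ligases of muscle fibres. Retained were 50 TRIM probes for 34 genes, and the counts below refer to these unless stated otherwise.

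The TRIM family had shares of enriched and depleted probes close to or below those of the whole array, while single members lay far from an IP/T of 1 on either side. In EV cells the IP/T ratio was at least 2 for 5 of 50 TRIM probes, against 14.8% of all retained probes, and at most 0.5 for 6, against 12.9%. The ratio was below 1 in both dye orientations for 26 TRIM probes, against 51.6% of all retained probes, and above 1 in both for 17, against 32.6%. The median log2 IP/T was -0.20 for TRIM probes and -0.24 for all retained probes. In sponge cells 5 TRIM probes were at 2 or above (15.6% of all) and 5 at 0.5 or below (14.1%), with a median of -0.21 against -0.26. The ratios are relative to the other probes, since quantile normalization sets the overall distributions of both fractions equal.

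**Figure D1:**
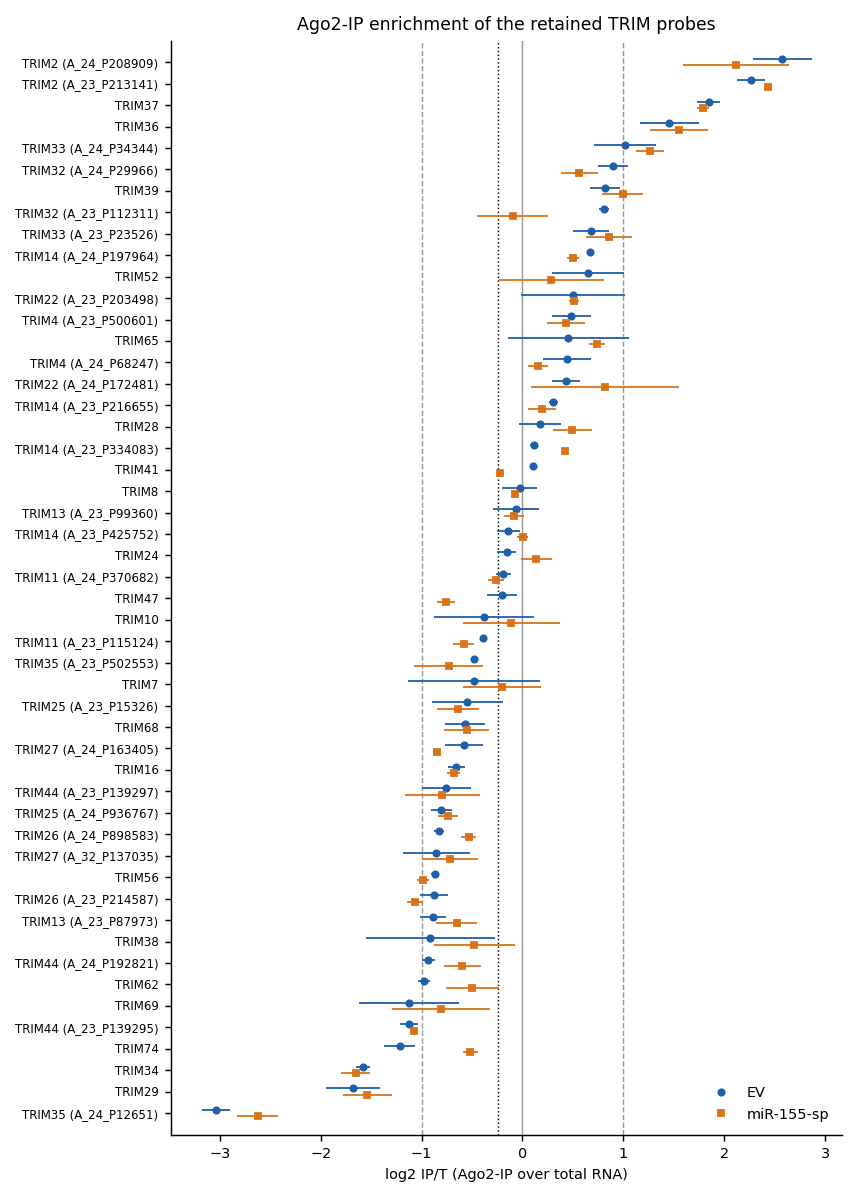
Log2 IP/T of each of the 50 retained TRIM probes in EV (circles) and sponge cells (squares, miR-155-sp), with horizontal lines from one dye orientation to the other, dashed lines at a 2-fold ratio and a dotted line at the median of all retained probes in EV cells. Probes of TRIM2, TRIM37, TRIM36 and TRIM33 lie beyond 2-fold enrichment in both populations, and TRIM35 A_24_P12651 lies lowest at -3.04 in EV cells.

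TRIM2, TRIM37, TRIM36 and TRIM33 gave the 5 probes at 2 or above, and the same 5 probes were at 2 or above in sponge cells. TRIM2 is an NHL ligase best known from neurons, where it acts on neurofilament light chain. The log2 signal of TRIM2 A_23_P213141 was 9.22 in EV T, 11.48 in EV IP, 8.73 in sponge T and 11.17 in sponge IP. Both IP samples were high and both T samples low, which gave an IP/T of 4.80 in EV (5.29 and 4.36 in the dye orientations) and 5.42 in sponge cells (5.41 and 5.43). Of all retained probes 4.58% reached this EV ratio. The other TRIM2 probe, A_24_P208909, had log2 signals of 6.59, 9.17, 6.64 and 8.76 in the same order, again higher in both IP samples. Its IP/T was 5.96 in EV (7.30 and 4.87) and 4.33 in sponge cells (6.23 and 3.01).

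The single retained TRIM37 probe, for a ligase of centrosomes and peroxisomes that is mutated in Mulibrey nanism, had log2 signals of 7.70 in EV T, 9.54 in EV IP, 7.56 in sponge T and 9.35 in sponge IP. Its IP/T was 3.60 in EV (3.90 and 3.32) and 3.45 in sponge cells (3.59 and 3.32), so the populations differed by less than the dye orientations. TRIM36, a COS ligase that binds microtubules, was represented by A_24_P363134 with log2 signals of 5.78, 7.23, 5.71 and 7.26 in the same order. Of all retained probes 9.75% reached its EV ratio: IP/T was 2.75 in EV (3.36 and 2.24) and 2.94 in sponge cells (3.59 and 2.40). In both T samples it was above background in the Cy3 labelling only. Under both normexp background corrections its log2 IP/T in EV cells dropped from 1.46 to 0.26 and 0.37, and that of TRIM37 from 1.85 to 0.92 and 0.88. For TRIM2 A_24_P208909 these corrections gave 0.94 and 1.02, and for TRIM33 A_24_P34344 0.60 and 0.50. Of the 5 probes, TRIM2 A_23_P213141 with 1.81 and 1.67 was thus the 1 that stayed at 2-fold or more under both.

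PHD-bromodomain members act in the nucleus, where TRIM28 silences repeats and target genes of KRAB zinc finger proteins, TRIM24 is a coregulator of nuclear receptors and TRIM33 acts with SMAD proteins. TRIM33 A_24_P34344 had log2 signals of 8.48 in EV T, 9.50 in EV IP, 8.38 in sponge T and 9.64 in sponge IP, and TRIM33 A_23_P23526 of 9.47, 10.15, 9.45 and 10.31. For both probes each IP sample exceeded each T sample. IP/T was 2.02 in EV (1.63 and 2.50) and 2.40 in sponge cells for the first, and 1.60 (1.41 and 1.81) and 1.81 for the second. The first passed 2 in EV cells only with IP in Cy3. TRIM28 A_23_P89884 had log2 signals of 13.24, 13.42, 13.23 and 13.73, with an IP/T of 1.13 in EV and 1.41 in sponge cells, and TRIM24 A_23_P93629 had 11.46, 11.31, 11.35 and 11.49, with 0.898 and 1.10. All 4 probes of this group, for 3 genes, had a higher IP/T in sponge cells, whereas 50.3% of all retained probes had a lower one. In both dye orientations 3 of the 4 were higher, against 30.6% of all retained probes. TRIM33 A_23_P23526 had log2 changes of 0.59 and -0.23. Probes of 1 gene are not independent, and a difference of this small group was not tested.

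TRIM35 A_24_P12651 had the lowest ratio of the family. TRIM35 is a PRY-SPRY ligase with reported roles in cell growth and interferon signalling. Its log2 signal was 10.74 in EV T, 7.70 in EV IP, 10.48 in sponge T and 7.86 in sponge IP, high in both T samples and low in both IP samples. IP/T was 0.121 in EV (0.110 and 0.134) and 0.162 in sponge cells (0.141 and 0.186), and 0.0112% of all retained probes had an EV ratio this low or lower. The other TRIM35 probe, A_23_P502553, carries the same RefSeq transcript identifier and had log2 signals of 8.87, 8.40, 9.27 and 8.54. Here IP/T was 0.719 in EV (0.717 and 0.720) and 0.602 in sponge cells (0.761 and 0.476), and its log2 value in EV cells was 0.0095 in place of -0.48 with normexp and loess. The log2 ratios of the TRIM35 probes in EV cells thus differed by 2.57.

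**Figure D2:**
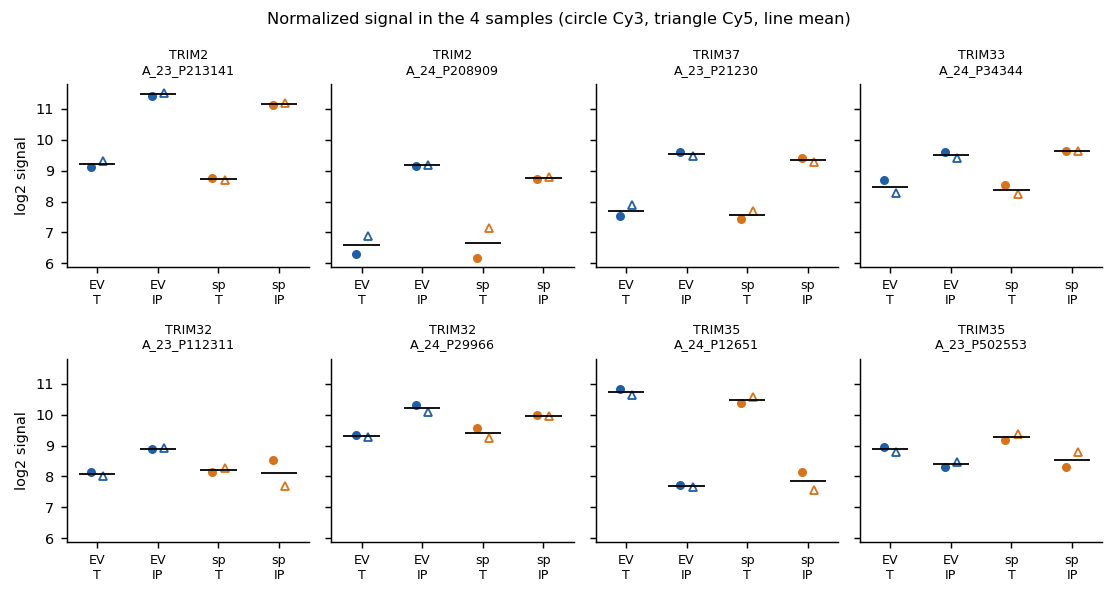
Quantile-normalized log2 signal of 8 TRIM probes in the 4 RNA samples (EV, and sp for sponge cells, T for total and IP for Ago2-IP RNA), with Cy3 labellings as circles, Cy5 labellings as triangles and their mean as a line. IP lies above T for both TRIM2 probes, TRIM37 and TRIM33 in both populations, whereas TRIM35 A_24_P12651 lies about 3 log2 units lower in IP than in T in EV cells. For TRIM32 A_23_P112311 the mean of IP exceeds that of T in EV cells only. In sponge cells its Cy3 labellings still give 8.52 in IP and 8.13 in T.

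Of the other 5 probes at 0.5 or below in EV cells, 3 belonged to members without a PRY-SPRY, NHL, COS or PHD-bromodomain end. TRIM29, which has no RING finger, had log2 signals of 8.42 in EV T, 6.74 in EV IP, 8.75 in sponge T and 7.21 in sponge IP, for an IP/T of 0.312 in EV (0.377 and 0.259) and 0.344 in sponge cells. TRIM44, which carries a zinc finger of the deubiquitinase type in place of the RING, had an IP/T of 0.458 in EV (0.431 and 0.488) and 0.476 in sponge cells on A_23_P139295, with log2 signals of 11.31, 10.19, 11.21 and 10.14. Both genes were thus lower in each IP sample than in either T sample. TRIM74, a shortened copy of TRIM50, was above background in Cy3 alone. Both labellings together gave an IP/T of 0.430 in EV and 0.699 in sponge cells, and Cy3 labellings alone gave 0.518, which is above 0.5, and 0.537. Its near-identical copy TRIM73 cannot be told apart from it here. The last pair were PRY-SPRY members. TRIM34 A_24_P398323, also above background in Cy3 alone, had an IP/T of 0.334 in EV and 0.318 in sponge cells, and of 0.473 and 0.385 from Cy3 labellings alone. TRIM69, a microtubule-associated ligase, had 0.458 in EV (0.647 and 0.325) and 0.570 in sponge cells. In sponge cells 4 of these 6 probes stayed at 0.5 or below, and TRIM26 A_23_P214587 joined them with 0.477. Under both normexp corrections 1 TRIM probe in place of 6 was at 0.5 or below in EV cells, TRIM35 A_24_P12651, with a log2 IP/T of -1.65 and -1.91. The offset of these corrections draws the ratios of dim probes toward 1 here as well.

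PRY-SPRY members made up 30 of the 50 probes, for 20 genes. Each gene was placed in a single group, so COS members such as TRIM36 were not counted here, whatever other domains they carry. None of the 30 probes was at 2 or above (14.8% of all retained probes) and 3 were at 0.5 or below (12.9%) in EV cells. The group had a median log2 ratio of -0.43 in EV and -0.49 in sponge cells, against -0.24 and -0.26 for all retained probes. The highest was TRIM39, with an IP/T of 1.76 in EV and 1.99 in sponge cells. Members known for innate immunity lay on both sides of 1: TRIM25, which ubiquitinates RIG-I, had 0.572 and 0.685 on its probes in EV cells, TRIM26 had 0.546 and 0.562, TRIM38 had 0.531, and TRIM27 had 0.553 and 0.670. TRIM4 had 1.36 and 1.40, TRIM22, an interferon-induced antiviral factor, had 1.35 and 1.42, and TRIM14, an adapter of antiviral signalling without a RING, had between 0.907 and 1.59 on 4 probes. The dye orientations behind the 1.42 of TRIM22 were 2.03 and 0.989. TRIM11 had 0.763 and 0.878 and TRIM68 had 0.672. The 11 probes for members with none of these end domains had a median of -0.87, TRIM37 being the 1 at 2 or above, and included TRIM56 with 0.549, TRIM8, a regulator of cytokine signalling, with 0.982, and TRIM13, a ligase of the endoplasmic reticulum, with 0.541 and 0.954. By contrast the 4 NHL probes (TRIM2 and TRIM32) had a median of 1.58 and the 4 PHD-bromodomain probes of 0.43. Groups of 4 probes for 2 and 3 genes are small, and the difference between groups was not tested.

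**Figure D3:**
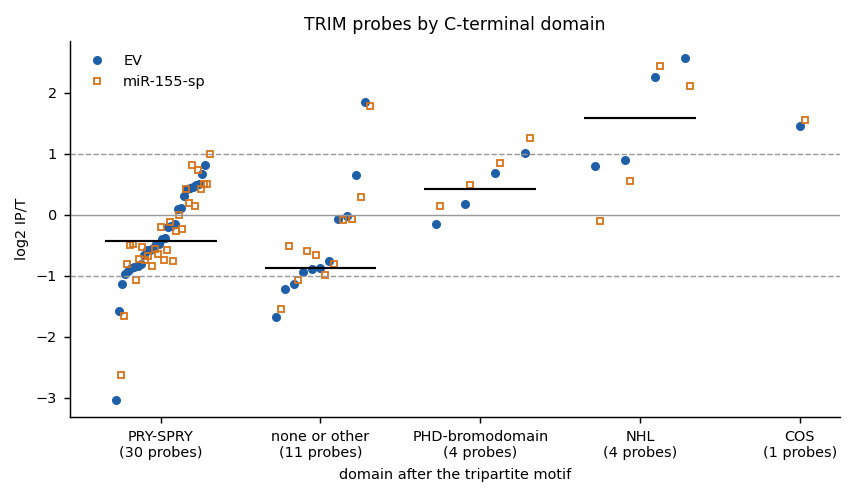
Log2 IP/T of the 50 retained TRIM probes in EV (filled circles) and sponge cells (open squares), sorted by the domain after the tripartite motif, with the EV median of each group of at least 4 probes as a line and dashed lines at a 2-fold ratio. The 30 probes placed under PRY-SPRY, which leave out COS members such as TRIM36, all lie below 2-fold enrichment in EV cells. There the 4 NHL probes all lie above 0.

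Probes of the same TRIM gene mostly gave similar ratios. For 13 TRIM genes with at least 2 retained probes, the log2 IP/T in EV cells ranged over a median of 0.28, against 0.34 for all 2766 such genes. TRIM35 was the 1 TRIM gene whose probes ranged over at least 1 log2 unit, as did 12.3% of all such genes, and 1.05% ranged as far as TRIM35. TRIM14 was the 1 TRIM gene with probes on both sides of 1 (18.9% of all). TRIM32, TRIM4, TRIM26 and TRIM22 ranged over less than 0.1, namely 0.090, 0.043, 0.041 and 0.069. The change between populations was less alike: 8 of the 13 genes had probes that differed in its direction, against 46.9% of all.

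The sponge was compared with EV to see which IP/T ratios were lower in cells with the sponge. How much miR-155 it captured was not measured on these arrays. No TRIM probe had an IP/T at least 2-fold lower or 2-fold higher in sponge cells, against 0.698% and 0.748% of all retained probes. IP/T was lower in both dye orientations for 15 TRIM probes (30.3% of all) and higher in both for 18 (30.6%). The median log2 change was 0.04, against -0.0025 for all retained probes. Under the normexp corrections it was -0.015 and -0.022, but over a larger set of TRIM probes. All retained probes gave -0.013 and -0.012 under these corrections. For the same 50 retained TRIM probes, the median minus that of all retained probes was 0.039 before the corrections. With them this difference was 0.0028 and -0.010.

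TRIM32 A_23_P112311 had the lowest change of the family. The log2 signal of this probe was 8.09 in EV T, 8.90 in EV IP, 8.20 in sponge T and 8.10 in sponge IP, so that EV IP alone stood above the other samples. IP/T was 1.75 in EV (1.69 and 1.81) and 0.935 in sponge cells (0.733 and 1.19), a log2 change of -0.91 (-1.21 and -0.61). The labellings of the sponge IP sample gave 8.52 in Cy3 and 7.68 in Cy5, and the log2 change was -0.33 from Cy3 labellings alone and -1.48 from Cy5 labellings alone. Under both normexp corrections the change dropped in size to -0.32 and -0.34. A change this low or lower was seen in 0.988% of all retained probes and in 8 (0.0596%) of the 13432 retained probes above background in all 8 channels, to which it belongs.

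TRIM32 A_24_P29966 moved the same way by less. Its log2 signals were 9.31 in EV T, 10.21 in EV IP, 9.41 in sponge T and 9.98 in sponge IP, with both IP samples above both T samples. IP/T was 1.86 in EV (1.69 and 2.06) and 1.48 in sponge cells (1.30 and 1.68). The log2 change was -0.34 (-0.38 and -0.30), or -0.57 from Cy3 labellings alone and -0.10 from Cy5 labellings alone. It was reached by 11% of all retained probes and 6.19% of those in all 8 channels. In EV cells the probes of TRIM32 differed by 0.09 in log2 IP/T, and in sponge cells by 0.66. Total RNA of TRIM32 was 0.12 and 0.10 higher on the log2 scale in sponge cells and IP RNA 0.79 and 0.23 lower. The direction in total RNA was not settled, since it turned with the dye on both probes. Cy3 and Cy5 labellings gave -0.02 and 0.25 for A_23_P112311, and 0.24 and -0.03 for A_24_P29966. In IP RNA they gave -0.35 and -1.23, and -0.33 and -0.14.

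**Figure D4:**
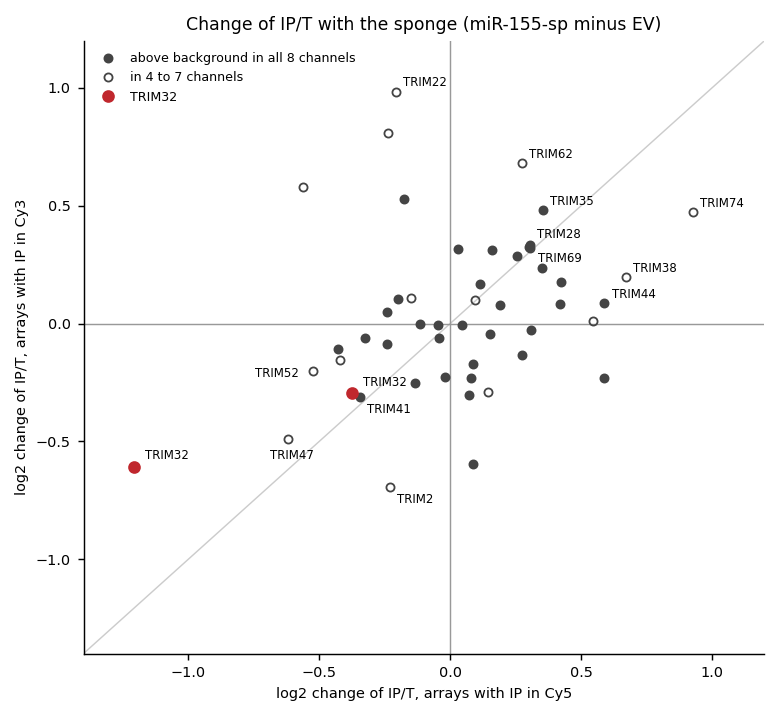
Log2 change of IP/T between the populations (sponge minus EV) of the 50 retained TRIM probes, from arrays with IP labelled in Cy5 (horizontal axis) or in Cy3 (vertical axis), with the diagonal where both are equal. TRIM32 A_23_P112311 lies apart at -1.21 and -0.61, and the other TRIM32 probe at -0.38 and -0.30.

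The other TRIM probes lower in both dye orientations with the sponge had smaller changes or fewer channels. TRIM47 A_23_P26697, a ligase known from tumours and above background in 6 channels, had log2 signals of 6.51 in EV T, 6.31 in EV IP, 6.91 in sponge T and 6.15 in sponge IP and a change of -0.56 (-0.62 and -0.49), which was -0.23 from Cy3 labellings alone and -0.88 from Cy5 labellings alone. Its T sample was higher and its IP sample lower with the sponge. For TRIM2 A_24_P208909 the change was -0.46 (-0.23 and -0.69), while the other TRIM2 probe gave 0.17 (0.03 and 0.32), so the TRIM2 probes differed in direction. Under both normexp corrections they did not: the change was -0.38 and -0.20 for the first and -0.14 and -0.025 for the second. TRIM52, above background in Cy3 alone, had -0.36 (-0.52 and -0.20), which was -0.15 from Cy3 labellings alone, and TRIM41 A_23_P167521 had -0.33 (-0.35 and -0.31).

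The highest change was that of TRIM74, 0.70 (0.93 and 0.47), but it was 0.05 from Cy3 labellings alone, the dye in which the probe was above background, and 0.0068 and -0.063 under the normexp corrections. TRIM62 A_23_P112602 followed with 0.48 (0.27 and 0.68) and TRIM38 A_24_P294851 with 0.43 (0.67 and 0.20), both above background in 5 channels. From Cy3 labellings alone these were 0.07 and 0.21, and from Cy5 labellings alone 0.88 and 0.66. Among probes above background in all 8 channels, TRIM35 A_24_P12651 had 0.42 (0.35 and 0.48) and TRIM44 A_24_P192821 had 0.34 (0.59 and 0.09). For TRIM35 the Cy3 labellings alone gave 0.88 and the Cy5 labellings alone -0.050, so its direction was not settled either. For TRIM44 they gave 0.05 and 0.62. TRIM28 had 0.32 (0.30 and 0.33), and 0.32 from the labellings of either dye alone. TRIM22 A_24_P172481 had 0.39, but its orientations gave -0.21 and 0.98, so its direction was not settled.

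Neither fraction of RNA differed 2-fold between the populations for any retained TRIM probe, as 0.363% of all retained probes did in T and 0.234% in IP. In total RNA the log2 difference, sponge minus EV, ranged from -0.70 for TRIM22 A_24_P172481 to 0.40 for TRIM35 A_23_P502553, with a median of -0.03. In Ago2-IP RNA it ranged from -0.79 for TRIM32 A_23_P112311 to 0.47 for TRIM29, with a median of 0.02. The TRIM22 value rests on Cy5 labellings that gave -1.13 and Cy3 labellings that gave -0.27.

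The 24 TRIM probes detected but not within 2-fold between labellings had a median log2 signal of 5.60, against 8.73 for those retained, and 17 were above background in the Cy3 channels alone. TRIM3, TRIM5, TRIM9, TRIM21, TRIM23, TRIM43, TRIM45, TRIM49, TRIM50 and TRIM59 had no retained probe, and probes were also set aside for TRIM7, TRIM10, TRIM26, TRIM34, TRIM36, TRIM37, TRIM38, TRIM41, TRIM62 and TRIM65. TRIM36 A_23_P110569 had log2 signals of 6.29 in EV T, 10.30 in EV IP, 6.26 in sponge T and 10.10 in sponge IP, higher in both IP samples as on the retained TRIM36 probe. Its IP/T was 16.1 in EV (20.7 and 12.5) and 14.4 in sponge cells (23.1 and 8.96). As on the retained probe, both T samples were above background in the Cy3 labelling only. Under both normexp corrections its log2 IP/T in EV cells was 1.80 and 2.06 in place of 4.01. The TRIM37 probe set aside, A_24_P153853, did not show the ratio of the retained one: its IP/T was 0.754 in EV (0.152 and 3.75) and 0.487 in sponge cells. TRIM23, which carries an ARF GTPase domain, had an IP/T of 4.92 (4.55 and 5.32) and 3.39, TRIM59 4.09 (2.23 and 7.50) and 4.69, and the NHL member TRIM3 2.44 (3.48 and 1.71) and 1.89. TRIM5, the retroviral restriction factor, had 0.587 in EV and 0.615 in sponge cells. With these probes, 9 of 74 members were at 2 or above in EV cells, against 14.9% of all probes that passed the detection rule, and 10 at 0.5 or below, against 13.4%. TRIM26 A_24_P377394 and TRIM41 A_24_P252020 fell short of their EV ratio by 2-fold or more in sponge cells (2.97% of all), and TRIM9 A_23_P205632, TRIM45 A_23_P160523 and TRIM50 exceeded it by 2-fold or more (2.76%). TRIM45 A_23_P160523 was also the 1 member past 2-fold between the populations in IP RNA (1.97% of all). Each of these 5 probes had labellings more than 2-fold apart in some sample.

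Several TRIM genes lie next to each other in the RefSeq gene order. In the run TRIM5, TRIM6, TRIM34 and TRIM22, an antiviral cluster, the retained probes gave an IP/T in EV cells of 0.334 for TRIM34 and 1.35 and 1.42 for TRIM22. In the run TRIM31, TRIM40, TRIM10, TRIM15, TRIM26 and TRIM39 it was 0.767 for TRIM10, 0.546 and 0.562 for TRIM26 and 1.76 for TRIM39. The ratios within each of these runs lay on both sides of 1. The dye orientations of TRIM22 A_23_P203498 (2.03 and 0.989) and TRIM10 (1.08 and 0.544) themselves did so. Those of TRIM34 (0.318 and 0.351), TRIM22 A_24_P172481 (1.23 and 1.48), both TRIM26 probes and TRIM39 (1.96 and 1.59) did not. TRIM47 and its neighbour TRIM65 had 0.869 (0.966 and 0.782) and 1.37, but the orientations of TRIM65 gave 2.08 and 0.903, and its probe set aside had 0.687.

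Partners of the family were described in the same way from lists of related genes. The 6 retained probes for TRIM proteins under other names were 1 for MID1 and 5 for PML, the organiser of nuclear bodies. None was at 2 or above (14.8% of all retained probes) or at 0.5 or below (12.9%) in EV cells, and their median log2 IP/T was -0.62. Next came 19 probes for E2 enzymes and E2 variants that work with TRIM ligases. Of these, 5 were at 2 or above (14.8% of all retained probes) and 1 at 0.5 or below (12.9%), with a median of 0.05. Probes of 1 gene are not independent, and UBE2W gave 3 of the 5. UBE2W, which attaches the first ubiquitin to the amino terminus of proteins, had 9.22, 11.3 and 15.3 in EV cells on its 3 probes and 12.9, 15.6 and 30.4 in sponge cells. The 15.3 and 30.4 rest on a dim T signal, with log2 values of 6.38 and 5.38 and 6 channels above background. The probe with 11.3 and 15.6 was above background in all 8 channels. UBE2D1 A_24_P364025 had 4.21 in EV and 2.73 in sponge cells, whereas the other UBE2D1 probe had 1.27 and 1.12. UBE2V2, an E2 variant, had 2.24 and 2.56. UBE2D2 was lower in IP, with 0.426 and 0.392 on A_23_P305677 and 0.509 and 0.568 on its other probe. Of 19 probes for silencing partners of TRIM28, 1 was at 2 or above, against 14.8% of all retained probes. It was TASOR A_23_P6651 with 2.82 in EV and 4.04 in sponge cells, and the other TASOR probe had 1.18 and 1.27. The log2 T signal of A_23_P6651 was low, 5.54 and 4.83, with 5 channels above background. At 0.5 or below was 1 probe (12.9% of all), CHD3 with 0.341 and 0.729. Of 14 probes for innate sensing genes that TRIM25 and others regulate, none was at 2 or above (14.8% of all). At 0.5 or below were 2, against 12.9% of all retained probes. They were ISG15 with 0.472 and ZC3HAV1 A_23_P20122 with 0.489, and the other ZC3HAV1 probes had 0.719 and 0.738.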

How the data were processed

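Total and Ago2-IP RNA of EV and miR-155-sp KM-H2 cells had been hybridized to 2-color Agilent 44k arrays. The authors' spot intensity files, per the file headers, came from Feature Extraction 10.7.3.1 (10.5.1.1 in the submitters' processing notes), which subtracted background and normalized dyes. The authors also deposited quantile-normalized log2 values, used here as an alternative. From the intensities, control and outlier spots were removed, spots of a probe were averaged as log2, and the 8 channels were quantile-normalized. Probes well above background in at least 4 channels and within 2-fold between labellings were retained, and the labellings were averaged. Log2 IP/T is IP minus T. Signals near background compress ratios, and the number of arrays limits the precision. Both labellings of an RNA were counted as 1 sample, so no test was made.

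Of 41000 probes 23958 were named through RefSeq (GRCh38.p14). Coordinates are not printed, since the array design used hg18. The members and gene lists were chosen with earlier results of these data known. Named were all probes of TRIM32, TRIM35 and genes with several member probes, the 8 highest and 8 lowest EV ratios, the 6 largest falls and 6 largest rises, the 5 highest mean signals, probes past 2-fold between populations, and at most 4 members per partner list past 2-fold. Members given for their role or as neighbours were chosen after their values were seen. Alternatives were other normalizations and filters, normexp (offset 50) with limma 3.58.1 in R 4.3.3, each labelling and each orientation alone. Other steps used Python 3.11.15, numpy 2.4.6 and pandas 2.3.3, and the code was tested on simulated data.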

Additional observations from a re-analysis of the deposited data

Results flagged for a closer look

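TRIM41 A_23_P167521, a probe for a ligase of protein kinase C, had an IP/T above 1 in both dye orientations in EV cells (1.07 and 1.08) and below 1 in both in sponge cells (0.839 and 0.874), a log2 change of -0.33. Its log2 signals were 9.11 in EV T, 9.21 in EV IP, 9.29 in sponge T and 9.07 in sponge IP. Cy3 labellings alone gave 0.891 in EV and 0.774 in sponge cells, both below 1, and Cy5 labellings alone 1.30 and 0.947. The opposite sides of 1 drew attention to it, and this difference was not tested, since a group holds 1 sample. The other TRIM41 probe, whose labellings were more than 2-fold apart, had a log2 change of -1.10. That change was -0.12 from Cy3 labellings alone and -2.09 from Cy5 labellings alone. Its IP/T was below 1 in EV cells as well, 0.722 (0.680 and 0.767), and 0.336 in sponge cells.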

How the results depend on the processing

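No paired analysis was possible because each group is 1 RNA and the replicate numbers in the labels are its dye labellings. With normexp and loess the median log2 IP/T of all retained probes in EV cells moved from -0.24 to -0.017. The median of the same 50 retained TRIM probes exceeded it by 0.04 before and by 0.0050 after. TRIM probes at 2 or above in EV cells (5) numbered 3 with a common median, 2 with normexp and loess, 3 with normexp and quantile normalization, 3 in all 8 channels, 9 without the filter on agreement, 3 with 1.5-fold agreement and 3 as gene means. In sponge cells (5) they numbered 2 and 3 with normexp, 3 in all 8 channels, 8 without the agreement filter and 3 with 1.5-fold agreement. Probes at 0.5 or below in EV cells (6) numbered 1 and 1 with normexp, 10 without the agreement filter and 12 with IP in Cy5 alone. In sponge cells (5) they numbered 8 with a common median, 1 and 1 with normexp, 12 without the agreement filter, 3 as gene means and 8 with IP in Cy3 alone. The median log2 IP/T in EV cells (-0.20) was -0.43 with a common median, -0.023 and -0.096 with normexp, -0.39 in all 8 channels, -0.39 without the agreement filter, -0.39 with 1.5-fold agreement and -0.34 as gene means. That in sponge cells (-0.21) was -0.46 with a common median, -0.019 and -0.077 with normexp, -0.53 in all 8 channels, -0.11 without the filter on dim probes, -0.29 without the agreement filter, -0.50 with 1.5-fold agreement, -0.30 as gene means and -0.29 with IP in Cy5 alone. The median change (0.04) was -0.015 and -0.022 with normexp, -0.021 with 1.5-fold agreement and between 0.02 and 0.11 with either labelling left out. Probes higher in both orientations with the sponge (18) numbered 11 of 34 as gene means. Probes past 2-fold in total RNA (0) numbered 1 with IP in Cy3 alone and between 0 and 1 with either labelling left out. In IP RNA (0) they numbered 1 with a common median, 1 without the agreement filter, 1 with IP in Cy5 alone and between 0 and 1 with either labelling left out. Gene means, 1.5-fold agreement and all 8 channels count fewer items by construction. The normexp settings, and those without a filter, count more TRIM probes than the 50. The normexp offset also draws the ratios of dim probes toward 1 by construction. The cause of the other differences was not tested. Of 1310 values of named probes under the alternatives, 1101 moved by less than 1 SD between dye orientations and 207 moved further. Part of the 1101 was fixed in advance: filters leave the value of a probe unchanged, and each orientation alone lies within this SD by construction. The tally therefore does not measure robustness. The sign turned for 96 of the 1310, of which 94 were values whose reported ratio or change was under 2-fold. The other 2 were of 1 probe: the change of TRIM9 A_23_P205632, 1.23 without the agreement filter, was -0.060 and -0.083 with normexp. The deposited log2 values held 42 of the TRIM probes and differed from those computed here by a median of 0.000424.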
